A study of Homo sapiens with 4 samples.

Results

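Nuclear hormone receptors are transcription factors, many of which are switched by small lipid-soluble ligands, and 36 of their genes were followed here out of 57820 genes in the count files. The 36 were chosen by name, and each matched 1 Ensembl identifier. The cells were A549, a line established from a human lung adenocarcinoma, with 2 libraries of parental cells of epithelial morphology and 2 of a derived line named TD. The TD line was maintained with the cytokine TGF-β (transforming growth factor beta), given at 2 ng/ml every 3 days, and its label describes a mesenchymal-like morphology. Both lines grew in the same medium with serum, which itself carries hormones, and no receptor ligand other than those of the serum is named in the labels. The labels do not say whether TD is a single clone, or whether the libraries of a line came from separate cultures, so the p-values reflect variation among these libraries alone, which may be technical.

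A typical receptor of this family has a zinc-finger domain that binds DNA and a domain that holds the ligand. Retinoid, thyroid, vitamin D and lipid receptors bind DNA together with a retinoid X receptor (RXR), steroid receptors bind mainly as pairs of themselves, and several orphan receptors have no settled natural ligand. In lung epithelium these factors are known for roles in retinoid-guided differentiation, lipid handling and the response to glucocorticoids.

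Gene counts per library ranged from 26729278 to 44133836. The line labels held at the marker level. Of 8 epithelial and mesenchymal markers, all were called, with the 3 epithelial genes lower and the 5 mesenchymal genes higher in TD. CDH1, the adhesion molecule E-cadherin, fell from 189.9 ± 1.86 to 2.95 ± 0.134 CPM (TMM-scaled counts relative to each library's total, given as mean ± SD with n = 2 throughout), and VIM, vimentin, rose from 368 ± 3.67 to 1657 ± 260.3 CPM. Of 6 lung epithelial markers, NKX2-1, SFTPA1, SFTPB, SFTPC and SCGB1A1 had at most 6 counts in any library. The sixth, NAPSA, a protease of alveolar cells, had 61 and 64 counts in A549 and 35 and 31 in TD and was called lower (log2 change -1.15, adjusted p = 0.0399). Leaving out A549 replicate 1 or 2 ended that call (adjusted p = 0.187 or 0.181). Of 8 immune and endothelial markers, the macrophage gene CD68 alone reached the expression filter and was at 1.59 ± 0.293 and 1.65 ± 0.206 CPM. In bulk RNA, fewer cells of a kind and less RNA per cell cannot be told apart.

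More receptors fell than rose in TD. Of the 36 receptors, 32 passed the filter on low counts and were tested, and 15 of them were lower and 6 higher at an adjusted p below 0.05 by edgeR's quasi-likelihood test. Of all 17785 tested genes, 43.0% were called, 21.4% lower and 21.6% higher, against 46.9% and 18.8% of the tested receptors. At least a 2-fold fall was called for 10 tested receptors, or 31.2%, where the share over all tested genes was 12.3%. At least a 2-fold rise was called for 2, or 6.25%, against 9.49% of all tested genes. The median log2 change over the tested receptors was -0.28, beside -0.04 over all tested genes. The groups' CPM did not overlap for 29 of the 32 tested receptors, or 90.6%, where 74.0% of all tested genes did not overlap. Without A549 replicate 1, 9 receptors were called lower, and without A549 replicate 2, 3 were called higher. With pseudogenes also left out of the fit, these counts were 16 and 6.

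**Figure D1:**
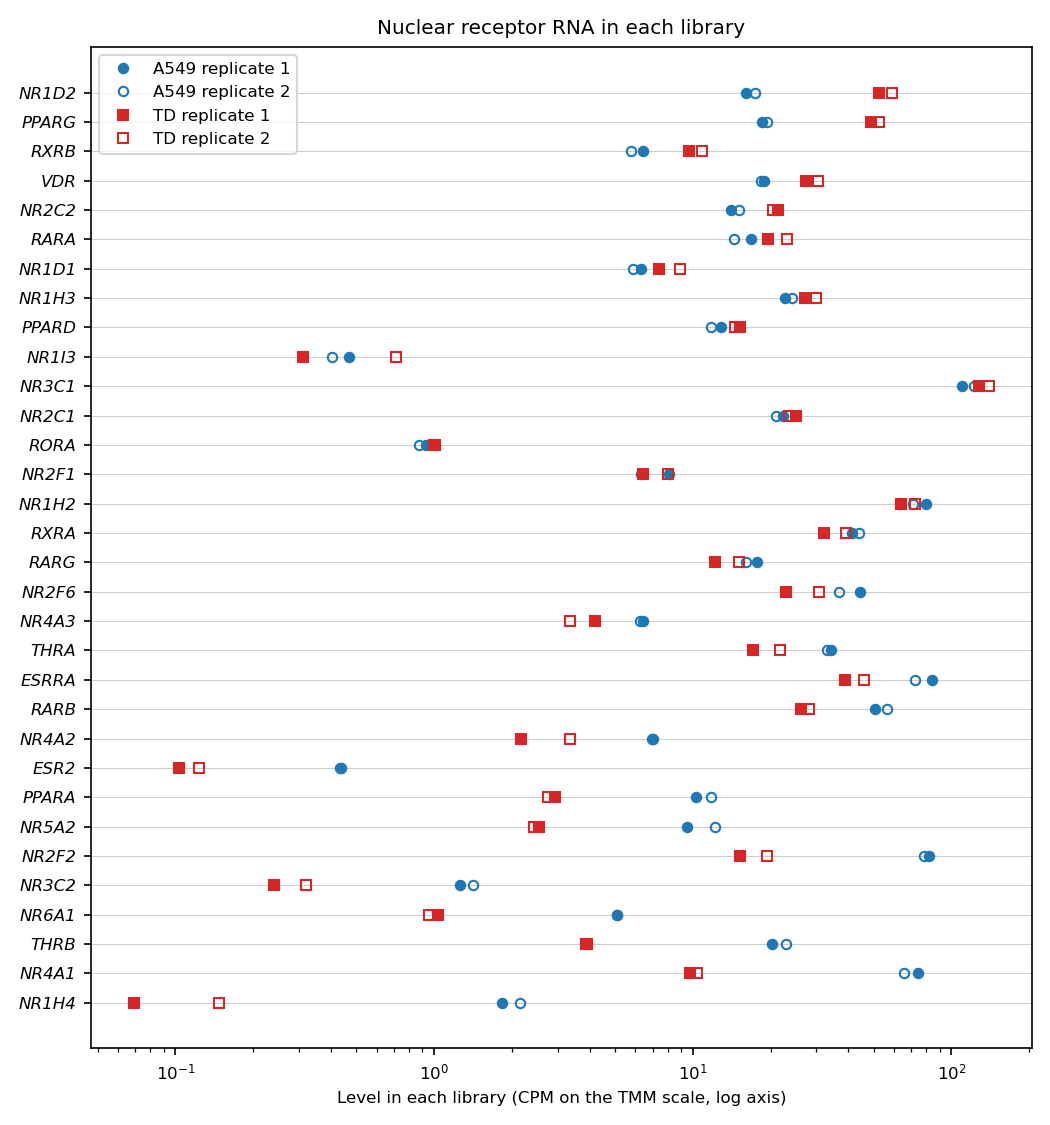
Level of each of the 32 tested receptors (rows, ordered by log2 change) in each library, in CPM on a log axis, with circles for A549, squares for TD, filled symbols for replicate 1 and open symbols for replicate 2. The TD symbols lie well to the left of the A549 symbols in the lower rows, such as NR4A1 and THRB, and to the right for PPARG and NR1D2 at the top.

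Among the retinoic acid receptors, RARB fell and RARA rose. RARB, a receptor that retinoic acid itself induces, was at 50.9 and 56.3 CPM in the A549 libraries and at 26.3 and 28.2 CPM in the TD libraries. Both TD values lay below both A549 values (log2 change -0.97, SE 0.09, adjusted p = 0.00135). The promoter stretch printed next is shown because it carries the known retinoic acid response element of RARB. It is the stretch before 1 of the 4 annotated RefSeq starts of RARB, at chr3:25428013-25428262 (GRCh38.p14, plus strand), inside an intron of longer RARB transcripts and outside annotated exons. Capitals mark the element found by searching both strands for GTTCANNNNNNGTTCA, which begins 52 bases before the start.

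RARB: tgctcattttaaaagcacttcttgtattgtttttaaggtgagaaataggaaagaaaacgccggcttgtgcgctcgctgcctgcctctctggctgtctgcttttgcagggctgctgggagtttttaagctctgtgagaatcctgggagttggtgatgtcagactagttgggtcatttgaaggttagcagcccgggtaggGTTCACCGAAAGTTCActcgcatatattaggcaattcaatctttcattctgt

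This motif occurred in 17 of 35116 RefSeq promoter windows of 250 bases (0.0484%), and RARB was the single receptor with it among the 33 that had a window. The files count reads per gene, so which RARB start was used is not measured. RARA, the most widely expressed retinoic acid receptor, was at 16.8 and 14.5 CPM in A549 and 19.5 and 23.1 CPM in TD (log2 change 0.45, SE 0.13, adjusted p = 0.0466). Leaving out A549 replicate 1 gave RARA an adjusted p of 0.0819 and leaving out A549 replicate 2 gave 0.177, and scaling by library totals gave 0.0617. RARG, the receptor prominent in skin, was at 17.8 and 16.04 CPM in A549 and 12.2 and 15.1 CPM in TD, with an adjusted p of 0.139 that became 0.0043 without TD replicate 2. Per kilobase of exon, RARB made up 66.2% and 71.1% of the summed RAR level in the A549 libraries and 52.2% and 49.4% in the TD libraries. The share of RARA was 17.1% and 14.3% in A549 and 30.3% and 31.6% in TD, so RARB remained the most abundant of the 3 in every library.

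Of the RXR genes, the shared partners, RXRB was called and RXRA was not. RXRB, at 6.40 and 5.76 CPM in A549 and 9.68 and 10.8 CPM in TD, rose (log2 change 0.76, SE 0.14, adjusted p = 0.0107), while leaving out A549 replicate 2 ended the call (adjusted p = 0.0625). RXRA, the main RXR of epithelia, was at 41.5 and 43.8 CPM in A549 and 32.0 and 39.1 CPM in TD, short of a call (log2 change -0.26, SE 0.12, adjusted p = 0.145). Without TD replicate 2 its adjusted p was 0.00164, and with library totals as the scale 0.0218. RXRG, the form of muscle and brain, had 0 counts in all 4 libraries, which allows up to 0.0738 to 0.108 CPM per library, taking 3 counts as the limit of a 0. The summed RXR level per kilobase was 5.37 and 5.42 in A549 and 5.36 and 6.30 in TD, and RXRB supplied 30.4% and 27.1% of it in A549 and 46.1% and 43.9% in TD.

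Both thyroid hormone receptors fell. THRB, the isoform prominent in liver, was at 20.2 and 23.0 CPM in A549 and at 3.89 and 3.86 CPM in TD, a 5.56-fold lower level with groups far apart (log2 change -2.48, SE 0.12, adjusted p = 0.00016). THRA, the more widely expressed gene, was at 34.3 and 33.2 CPM in A549 and at 17.1 and 21.8 CPM in TD (log2 change -0.79, SE 0.14, adjusted p = 0.00924). The THRA call was lost without A549 replicate 1 (adjusted p = 0.055). THRA and NR1D1 lie on opposite strands and share 263 exon bases in GENCODE 29. Sharing of exon bases with another gene was found for 16 of the 36 receptors, and because the strand setting of the counting is not given in the sources used here, reads in such stretches are uncertain.

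The receptors of fatty acids moved in opposite directions. PPARG, a driver of lipid storage genes, was at 18.5 and 19.3 CPM in A549 and at 49.0 and 52.4 CPM in TD (log2 change 1.42, SE 0.08, adjusted p = 0.000293). PPARA, a driver of fatty acid oxidation, was at 10.3 and 11.8 CPM in A549 and at 2.93 and 2.75 CPM in TD (log2 change -1.96, SE 0.15, adjusted p = 0.000707). The groups of both genes stood apart, in opposite order. PPARD, the third of the family, was at 12.9 and 11.8 CPM in A549 and 15.2 and 14.5 CPM in TD, short of a call (log2 change 0.27, SE 0.10, adjusted p = 0.0869). The summed PPAR level per kilobase was 7.75 and 7.80 in A549 and 14.4 and 15.0 in TD. PPARG accounted for 52.7% and 54.6% of that sum in A549 and 74.8% and 76.9% in TD, while PPARA went from 10.1% and 11.4% to 1.53% and 1.39%.

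The stretch before 1 of the 6 annotated RefSeq starts of PPARG is printed because PPARG rose and this window holds 2 copies of AGGTCA, the half-site that receptors of this family bind. It lies at chr3:12287118-12287367 (GRCh38.p14, plus strand), outside any annotated gene, and capitals mark the half-sites, which begin 217 and 184 bases before the start.

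PPARG: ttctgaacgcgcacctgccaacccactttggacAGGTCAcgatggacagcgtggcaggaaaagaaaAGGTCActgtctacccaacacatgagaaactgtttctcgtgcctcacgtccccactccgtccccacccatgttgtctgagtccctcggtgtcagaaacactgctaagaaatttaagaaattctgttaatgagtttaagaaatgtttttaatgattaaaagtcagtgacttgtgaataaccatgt

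AGGTCA, searched on both strands, occurred in 12.1% of all promoter windows and at least 2 times in 1.02%. Among the 33 receptors with a window, 8 had it in at least 1 window. They were ESR2, NR1H3, NR1H4, NR5A2, PPARG, RARA, RARB and RXRG, which include genes that rose, that fell and that were not called.

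The oxysterol receptors LXR-beta and LXR-alpha, which control cholesterol export, showed small differences. NR1H2 (LXR-beta) was at 80.1 and 70.7 CPM in A549 and 63.7 and 72.6 CPM in TD, with overlapping groups (adjusted p = 0.343, and 0.0466 without TD replicate 2). NR1H3 (LXR-alpha) was at 22.7 and 24.1 CPM in A549 and 27.2 and 29.9 CPM in TD (log2 change 0.29, SE 0.09, adjusted p = 0.0595). NR1H3 was called higher by DESeq2 (adjusted p = 0.023), with upper-quartile scaling (0.0409), with pseudogenes left out (0.0287) and without TD replicate 1 (0.00754). NR1H2 gave 73.9% to 81.0% of the summed LXR level per kilobase in the 4 libraries.

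NR1H4, the bile acid receptor FXR, fell by the largest factor of the tested receptors. It had 51 and 64 counts in the A549 libraries, or 1.83 and 2.16 CPM, and 2 and 6 counts in the TD libraries, or 0.0689 and 0.148 CPM. The level was 17.2-fold lower in TD by the fitted change (log2 change -4.11, SE 0.44, adjusted p = 0.00218), and 17.4-fold lower by summed counts with a 95% exact counting interval of 8.55 to 41.3. Such intervals cover counting error only. NR5A2, the orphan receptor LRH-1 of liver and gut, was at 9.48 and 12.2 CPM in A549 and at 2.55 and 2.43 CPM in TD (log2 change -2.12, SE 0.18, adjusted p = 0.00107). Both genes had TD values below every A549 value. NR1I3, the xenobiotic receptor CAR, was at 0.467 and 0.404 CPM in A549 and 0.31 and 0.713 CPM in TD, with adjusted p = 0.738 and overlapping groups. Its fitted change was 0.25 with all libraries and -0.48 without TD replicate 2. NR1I2, the xenobiotic receptor PXR, had 0 and 1 counts in A549 and 2 and 1 in TD and was not tested.

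VDR, the vitamin D receptor, rose from 18.9 and 18.3 CPM in A549 to 27.4 and 30.5 CPM in TD (log2 change 0.64, SE 0.09, adjusted p = 0.00541). NR3C1, the glucocorticoid receptor, had the highest CPM of all 36 receptors in every library, at 110.2 and 123 CPM in A549 and 127 and 140.05 CPM in TD. Its groups did not overlap, and it was not called (log2 change 0.20, SE 0.10, adjusted p = 0.162, and 0.0238 without TD replicate 1). NR3C2, the mineralocorticoid receptor, fell from 1.26 and 1.42 CPM in A549 to 0.241 and 0.32 CPM in TD, with 35, 42, 7 and 13 counts (log2 change -2.22, SE 0.35, adjusted p = 0.0073). NR3C2 lost its call when A549 replicate 1 (adjusted p = 0.064) or 2 (0.0788) was left out. Per kilobase, NR3C1 made up 98.4% of the summed level of the pair in each A549 library and 99.7% in each TD library.

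Sex steroid receptors were near the limit of detection. ESR2, estrogen receptor beta, had 12 and 13 counts in A549 and 3 and 5 in TD (log2 change -1.89, SE 0.54, adjusted p = 0.0429). That call was lost by DESeq2 (adjusted p = 0.171) and without A549 replicate 1 (0.237) or 2 (0.247). ESR1, estrogen receptor alpha, had 7 and 5 counts in A549 and 9 and 10 in TD and was not tested. PGR, the progesterone receptor, had 0 and 2 counts in A549 and 7 and 11 in TD, 7.43-fold higher by summed counts (95% exact counting interval 1.78 to 66.0), and was below the filter. ESRRA, an estrogen-related receptor that drives mitochondrial genes, was by contrast abundant, and it fell from 84.0 and 72.1 CPM in A549 to 38.8 and 46.1 CPM in TD (log2 change -0.88, SE 0.13, adjusted p = 0.00539).

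**Figure D2:**
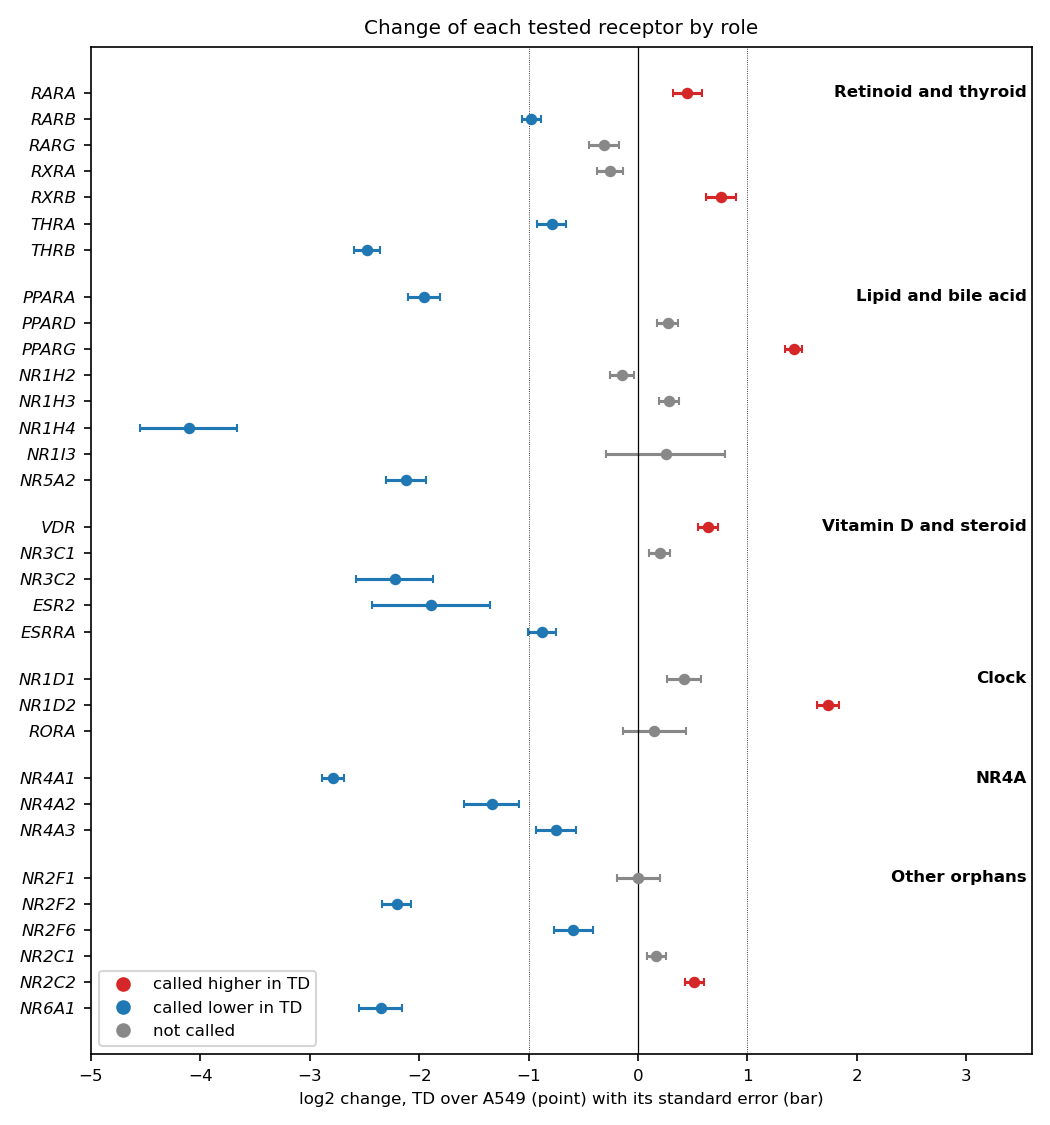
log2 change of each of the 32 tested receptors (points, TD over A549) with its standard error (bars), grouped by role, in red for called higher, blue for called lower and grey for not called. Dotted lines mark a 2-fold change. The NR4A genes all lie left of 0, and the PPAR genes lie on both sides.

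The clock-linked receptors were led by NR1D2. REV-ERB proteins are repressors within the circadian clock, and RORA is an activator that competes for their sites. NR1D2 (REV-ERB-beta) was at 16.1 and 17.4 CPM in A549 and at 52.6 and 58.9 CPM in TD, the largest rise of the tested receptors (3.33-fold, log2 change 1.73, SE 0.10, adjusted p = 0.000291). NR1D1 (REV-ERB-alpha) was at 6.32 and 5.90 CPM in A549 and 7.41 and 8.90 CPM in TD, short of a call (log2 change 0.42, SE 0.15, adjusted p = 0.0872, and 0.00198 without TD replicate 1). RORA was at 0.934 and 0.876 CPM in A549 and 0.999 and 1.01 CPM in TD (adjusted p = 0.708). The summed REV-ERB level per kilobase was 5.04 and 5.12 in A549 and 11.7 and 13.3 in TD, with NR1D2 at 54.7% and 58.5% of it in A549 and 77.2% and 75.9% in TD.

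The NR1D2 window is shown because CACGTG, the E-box that the clock activators CLOCK and BMAL1 bind, stands in it 2 times. It precedes 1 of the 2 RefSeq starts of NR1D2, at chr3:23945871-23946120 (GRCh38.p14, plus strand), in an intron of NR1D2 and of NKIRAS1 on the other strand. The boxes, in capitals, begin 155 and 105 bases before the start.

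NR1D2: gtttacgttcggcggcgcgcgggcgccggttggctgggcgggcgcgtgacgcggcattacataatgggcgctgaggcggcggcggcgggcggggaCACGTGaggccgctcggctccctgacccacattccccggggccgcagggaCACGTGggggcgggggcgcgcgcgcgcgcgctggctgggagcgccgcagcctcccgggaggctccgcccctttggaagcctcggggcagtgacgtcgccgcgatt

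CACGTG occurred in 6.34% of all windows and at least 2 times in 0.535%. Of the 33 receptors with a window, 4 held it, namely ESR2, NR1D2, NR2C1 and NR2F2. NR1D2 rose, ESR2 and NR2F2 fell and NR2C1 was not called.

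All 3 members of the NR4A family fell. These orphan receptors are immediate-early genes, induced within a short time by serum, stress and cyclic AMP. NR4A1 (NUR77) was at 74.1 and 65.7 CPM in A549 and at 9.79 and 10.4 CPM in TD, 6.91-fold lower (log2 change -2.79, SE 0.10, adjusted p = 8.05e-05). NR4A2 (NURR1) was at 7.04 and 6.94 CPM in A549 and at 2.17 and 3.34 CPM in TD (log2 change -1.34, SE 0.25, adjusted p = 0.0124). NR4A3 (NOR1) was at 6.40 and 6.24 CPM in A549 and at 4.17 and 3.34 CPM in TD (log2 change -0.75, SE 0.18, adjusted p = 0.0265). No TD value of the family reached an A549 value of the same gene. Without A549 replicate 1 or 2, NR4A2 had adjusted p = 0.0763 or 0.0732 and NR4A3 had 0.141 or 0.131, and only NR4A1 of the 3 kept its call. The summed NR4A level per kilobase was 12.9 and 11.7 in A549 and 2.55 and 2.80 in TD, and the share of NR4A1 went from 78.5% and 76.7% to 52.6% and 51.0%.

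The NR4A3 promoter is shown because it holds TGACG, the half-site of the cyclic AMP response element, in 4 copies within 250 bases of the single annotated RefSeq start. The 220 bases printed, chr9:99821635-99821854 (GRCh38.p14, plus strand), stop where an annotated exon begins and hold 3 of the copies, in capitals (CGTCA is the same half-site on the other strand). They begin 109, 91 and 83 bases before the start.

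NR4A3: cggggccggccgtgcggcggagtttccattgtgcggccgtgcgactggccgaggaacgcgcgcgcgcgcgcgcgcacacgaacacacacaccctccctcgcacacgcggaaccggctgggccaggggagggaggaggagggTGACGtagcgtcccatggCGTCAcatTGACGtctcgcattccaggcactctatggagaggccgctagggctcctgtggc

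TGACG occurred in 21.2% of all windows on either strand, and 4 or more copies stood in 0.236%. Of the 33 receptors with a window, 12 held at least 1 copy. NR4A1 had windows without TGACG, and NR4A2 had no window.

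Among the COUP-TF genes, orphan receptors of mesenchymal and vascular development, NR2F2 fell most. NR2F2 (COUP-TFII) was at 81.8 and 78.1 CPM in A549 and at 15.3 and 19.3 CPM in TD, 4.61-fold lower with no overlap (log2 change -2.20, SE 0.13, adjusted p = 0.000353). NR2F6 was at 44.3 and 36.7 CPM in A549 and 23.0 and 30.7 CPM in TD (log2 change -0.59, SE 0.18, adjusted p = 0.0489), with the call ended by leaving out A549 replicate 1 (adjusted p = 0.172) or 2 (0.0812). NR2F1 (COUP-TFI) was at 8.12 and 6.30 CPM in A549 and 6.41 and 8.02 CPM in TD, with interleaved values (adjusted p = 0.993). The sign of its small fitted change depended on the scaling, so no direction is given. NR2F2 supplied 40.7% and 44.3% of the summed COUP-TF level per kilobase in A549 and 19.0% and 18.3% in TD.

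NR6A1, the germ cell nuclear factor, fell from 5.10 and 5.09 CPM in A549 to 1.03 and 0.959 CPM in TD (log2 change -2.35, SE 0.20, adjusted p = 0.000966). Of the testicular receptors, which compete for retinoid and thyroid receptor sites, NR2C2 (TR4) rose from 14.1 and 15.1 to 21.3 and 20.4 CPM (log2 change 0.51, SE 0.09, adjusted p = 0.00945). NR2C2 shares 1197 exon bases with MRPS25 and 155 with FGD5-AS1, both on the opposite strand, so reads in those stretches are uncertain. Without A549 replicate 1 or 2, the adjusted p of NR2C2 was 0.0876 or 0.0568. NR2C1 (TR2) was at 22.3 and 21.1 CPM in A549 and 25.1 and 23.6 CPM in TD (adjusted p = 0.182).

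Ranked by level per kilobase of exon, the most abundant receptors changed between the lines. In A549 the order was ESRRA at 25.8 CPM per kilobase, NR1H2 at 20.1, NR2F6 at 15.1, RARB at 14.5, NR3C1 at 12.7, NR2F2 at 12.4 and NR4A1 at 9.58. In that order the library values of NR2F6 and RARB overlapped, as did those of NR3C1 and NR2F2. In TD the order was NR1H2 at 18.2, NR3C1 at 14.6, ESRRA at 14.01, PPARG at 11.2, NR2F6 at 10.0 and NR1D2 at 9.57 CPM per kilobase. NR3C1 and ESRRA overlapped there, and NR2F6 overlapped both PPARG and NR1D2. PPARG was in place 10 in A549 and 4 in TD, NR1D2 in place 16 and 6, NR2F2 in place 6 and 16, and NR4A1 in place 7 and 21. The exon lengths come from GENCODE 29 and count every annotated exon of a gene, so a receptor with long exons that these cells do not use ranks too low.

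**Figure D3:**
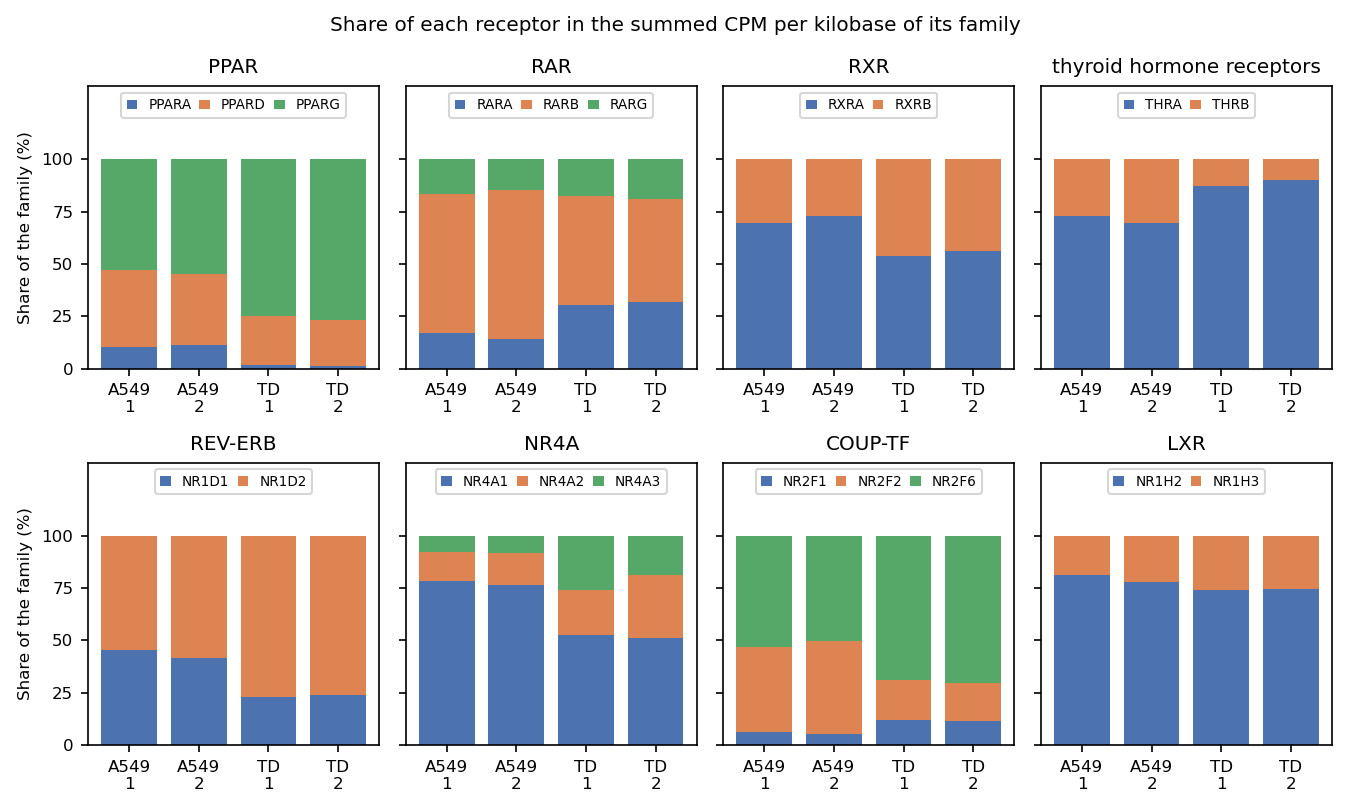
Stacked bars give the share of each receptor in the summed CPM per kilobase of its family in each library, in percent, for 8 families. Within a line the 2 bars differ most in the NR4A family of TD, and the PPARG and NR1D2 parts are larger in TD while the NR4A1 and NR2F2 parts are smaller.

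Several receptor genes are neighbours on their chromosomes and moved in different directions. On chromosome 3, NR1D2, THRB and RARB follow each other with 0 protein-coding genes between them in GENCODE 29, and NR1D2 rose by a log2 change of 1.73 while THRB fell by 2.48 and RARB fell by 0.97 on the log2 scale. On chromosome 17, THRA and NR1D1 also have 0 protein-coding genes between them, and RARA lies 5 protein-coding genes further on. There THRA was called lower, RARA was called higher and NR1D1 was not called.

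The coregulators that receptors recruit changed about as often as genes in general. Of 21 tested coregulators, 4 rose and 5 fell (42.9%, beside 43.0% of all tested genes), with a median log2 change of 0.03. PPARGC1A (PGC-1-alpha), a coactivator of PPARs and ESRRA, fell to 0.551 ± 0.194 CPM in TD, against 22.6 ± 1.71 in A549 (log2 change -5.31, SE 0.24, adjusted p = 0.000143). NCOA7 fell from 89.6 ± 6.83 to 27.7 ± 1.55 CPM. MED1, the mediator subunit that docks on receptors, rose from 83.7 ± 5.60 to 143 ± 2.11 CPM. Of 9 chaperones of steroid receptors, 1 fell and 2 rose (33.3% called, beside 43.0% of all tested genes). BAG1 went from 60.3 ± 1.10 to 25.7 ± 1.09 CPM and DNAJB1 from 117 ± 0.425 to 229.8 ± 27.6 CPM. PPID, a cyclophilin, had 52.1 ± 1.98 and 62.4 ± 1.27 CPM, and its adjusted p of 0.0413 became 0.184, 0.0918 and 0.0521 when A549 replicate 1, A549 replicate 2 or TD replicate 2 was left out. The number of chaperones called lower was 5 with library totals as the scale and also 5 without TD replicate 2. Among the coregulators, 7 were called higher without TD replicate 1.

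More retinoid handling genes fell than rose. Of 16 tested enzymes, carriers and targets, 9 fell and 3 rose, where 21.4% of all tested genes fell and 21.6% rose, and the median log2 change was -1.28. RARRES3, a retinoid-induced tumour suppressor, went from 6.01 ± 0.319 to 0.167 ± 0.0416 CPM, and DHRS3, which turns retinal back to retinol, went from 46.4 ± 1.40 to 2.04 ± 0.552 CPM. STRA6, the cell-surface retinol transporter, rose from 17.7 ± 2.67 to 109.8 ± 4.48 CPM and TGM2, a transglutaminase induced by both retinoids and TGF-β, from 770.5 ± 6.635 to 3593 ± 412 CPM. Calls of a fall numbered 4 when A549 replicate 1 was left out and 5 when A549 replicate 2 was.

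Targets of the glucocorticoid receptor went both ways. Of 17 tested, 11 fell and 4 rose (88.2% called, beside 43.0% of all tested genes), with a median log2 change of -1.03, and the receptor itself was not called. ERRFI1, an inhibitor of epidermal growth factor receptors, went from 156 ± 2.32 to 6.36 ± 0.566 CPM and IGFBP1, an insulin-like growth factor carrier, from 15.97 ± 1.09 to 0.706 ± 0.0248 CPM. MT2A, a metallothionein, rose from 14.8 ± 0.3395 to 398 ± 86.7 CPM and ANGPTL4, a lipase inhibitor that PPARs also induce, from 39.96 ± 1.51 to 179.6 ± 3.54 CPM.

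Lipid targets went both ways. Of 12 tested PPAR targets, 6 fell and 3 rose (median -0.20), where 21.4% of all tested genes fell and 21.6% rose. PDK4, which limits pyruvate use, went from 70.9 ± 8.51 to 0.271 ± 0.105 CPM and PLIN2, the lipid droplet coat protein, from 16.7 ± 0.428 to 4.11 ± 0.836 CPM. ANGPTL4 led the rises, and FABP5, a fatty acid carrier, had 78.4 ± 2.86 CPM in A549 and 169.5 ± 40.2 in TD, with an adjusted p of 0.07 or 0.0594 once A549 replicate 1 or 2 was left out. Of 11 tested LXR targets, 5 fell and 2 rose (63.6% called, beside 43.0% of all tested genes; median -0.61), with 3 and 1 when either A549 library was left out. Of the lipoprotein components, APOC1 fell from 63.2 ± 10.4 to 10.3 ± 0.153 CPM, and APOE was at 4.52 ± 0.622 CPM in A549 and 0.94 ± 0.062 CPM in TD. ABCA1, the cholesterol exporter, rose from 2.57 ± 0.0315 to 15.2 ± 0.873 CPM, and LPCAT3 from 21.3 ± 0.194 to 34.2 ± 6.24 CPM, the latter with an adjusted p of 0.104 or 0.0927 once A549 replicate 1 or 2 was left out.

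The list of FXR, PXR and CAR targets held no gene called higher in TD. Of 18 genes on the list, 9 were tested. Of these, 7 were called lower and 0 higher, where 21.4% of all tested genes fell and 21.6% rose. The 2 not called were SLC51A and UGT1A1, with fitted log2 changes of 0.67 (adjusted p = 0.164) and 0.11 (0.861). SLC51A was at 0.934 and 0.674 CPM in A549 and 1.38 and 1.18 CPM in TD, with groups that did not overlap. The median log2 change was -1.74, and edgeR, DESeq2 and limma-voom each called 0 higher, as did an unadjusted p under 0.05 in edgeR. The tools were run on the same 4 libraries, so their counts are not independent. SLC51B, the basolateral bile acid exporter, had 582 and 687 counts in A549 and 0 and 1 in TD, 1538-fold lower by summed counts (95% exact counting interval 275.5 to 60786). ABCB1, which encodes a drug efflux transporter, was at 24.5 ± 1.90 CPM in A549 and fell to 0.226 ± 0.0277 CPM, with 6 and 10 counts in TD. SLC51B and ABCB1 passed the filter on their A549 counts alone, so neither could have been called higher. The bile acid receptor NR1H4 fell as well, while PXR was at most at 2 counts in any library and CAR was not called.

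Clock genes split evenly. Of 15 tested, 5 rose and 5 fell (66.7% called, beside 43.0% of all tested genes; median -0.13), and without A549 replicate 1 the counts were 3 and 3. The repressor PER2 went from 29.9 ± 4.77 to 5.05 ± 0.706 CPM and the output factor HLF from 2.61 ± 0.634 to 0.28 ± 0.0555 CPM. ARNTL2 (BMAL2), a partner of CLOCK, rose from 14.7 ± 1.97 to 146 ± 8.98 CPM, and BHLHE40 (DEC1), a repressor at E-boxes that TGF-β can induce, rose from 112 ± 0.106 to 380.1 ± 2.22 CPM. Without A549 replicate 2, 3 clock genes were called higher.

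The hormone enzyme and remaining target lists were small. Of 8 tested steroid and thyroid hormone enzymes, 3 fell and 3 rose (75% called, beside 43.0% of all tested genes), and 0 rose without A549 replicate 1. DIO2, which makes active thyroid hormone, fell from 18.0 ± 1.11 to 2.62 ± 0.151 CPM. HSD11B2, which inactivates cortisol next to the mineralocorticoid receptor, was at 1.32 ± 0.088 and 0.153 ± 0.0767 CPM and fell, with an adjusted p of 0.0701 or 0.0787 once A549 replicate 1 or 2 was left out. HSD17B1, which makes estradiol, rose from 1.81 ± 0.115 to 3.24 ± 0.147 CPM, though leaving out A549 replicate 1 or 2 gave adjusted p = 0.14 or 0.103. SRD5A1, which makes dihydrotestosterone, rose from 11.8 ± 0.573 to 18.9 ± 1.97 CPM (adjusted p = 0.0611 when A549 replicate 1 was left out). Of 6 tested vitamin D enzymes and targets, 2 fell and 1 rose (50% called, beside the same 43.0%). SPP1, osteopontin, went from 619 ± 10.5 to 136 ± 0.538 CPM, and OSTF1 rose from 12.6 ± 0.121 to 17.5 ± 0.826 CPM, with adjusted p = 0.0725 or 0.0611 once A549 replicate 1 or 2 was left out, when 1 gene of the list was called lower. CYP24A1, the classical VDR target, was named outside the rule after its values were seen, and was at 587 ± 32.6 and 507 ± 25.4 CPM without a call (adjusted p = 0.133). Of 8 tested estrogen and progesterone receptor targets, 4 fell and 3 rose (87.5% called, beside 43.0%), with PDZK1 going from 7.10 ± 0.491 to 0.374 ± 0.00722 CPM and AREG, a growth factor, from 4.54 ± 0.992 to 0.536 ± 0.0762 CPM. IGFBP4 rose from 656 ± 25.99 to 1492 ± 194 CPM and CCND1, cyclin D1, from 260.2 ± 14.7 to 407 ± 29.4 CPM.

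**Figure D4:**
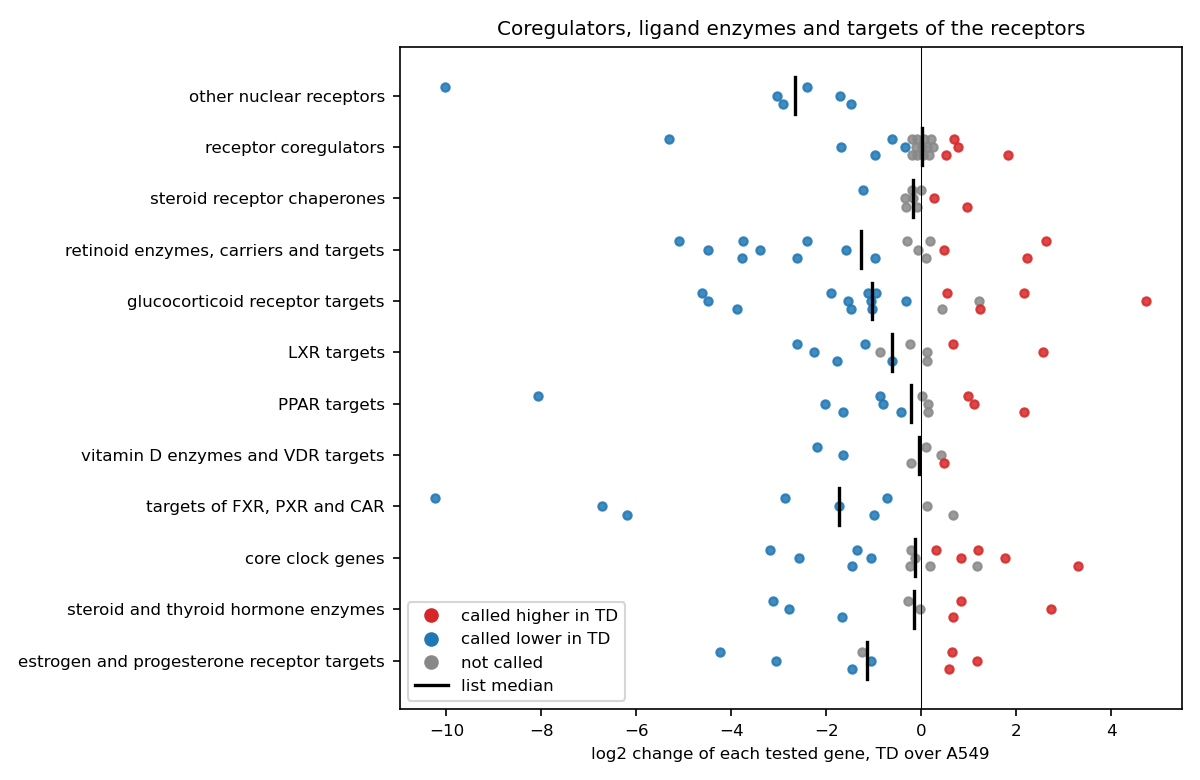
log2 change (horizontal axis, TD over A549) of each tested gene in 12 lists of coregulators, chaperones, ligand enzymes, targets and other nuclear receptors, coloured by call, with a black bar at the list median. The bars of the other nuclear receptors (-2.66), the FXR, PXR and CAR targets (-1.74) and the retinoid (-1.28), estrogen and progesterone (-1.15) and glucocorticoid (-1.03) lists lie below -1, and that of the coregulators lies at 0.03.

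The 12 remaining genes of the human nuclear receptor family were lower wherever they could be tested. Of these, 11 matched an identifier and 6 passed the filter, and all 6 were called lower by at least 2-fold, beside 12.3% of all tested genes. Some of the 6 passed the filter on their A549 counts alone and could not have been called higher. NR0B1, a receptor-like repressor without a DNA-binding domain, fell from 47.4 ± 10.1 to 5.73 ± 1.43 CPM.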

How the data were processed

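The deposited files hold raw counts per Ensembl gene, 1 file per library, and their whole-number values differ in total between libraries, so no scaling by the authors is seen. The submitters' processing notes name STAR 2.7.1a, HTSeq 0.11.2, FastQC 0.11.8 and build hg19 (GRCh37). Annotation, strand setting and read filters: not given in the sources used here. Per the labels' protocols, polyadenylated RNA gave strand-specific paired-end libraries. Rows of reads given to no gene were left out. They made up 6.12% to 7.79% (outside genes), 2.34% to 2.56% (several genes) and 8.08% to 9.22% (several alignments) of counted reads. Of 57820 identifiers, 52338 were paired with a symbol from GENCODE 29, which is on GRCh38 and served for names, gene types, exon lengths and gene order. Promoter sequences are RefSeq's on GRCh38.p14.

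TD was compared with A549 by the quasi-likelihood test of edgeR 4.0.16 (R 4.3.3), with TMM scaling, the default filter (minimum count 10) and Benjamini-Hochberg adjustment over 17785 genes. A gene can pass this filter on the counts of a single line, and it can then be called only as higher in that line. The SE is the absolute log2 change divided by the square root of F. Alternatives were DESeq2 1.42.0, limma-voom 3.58.1, other scalings and filters, thinning, no pseudogenes, a replicate block and leaving out each library, in which case the lone library is assumed to vary like the other pair. The 4 settings that leave out a library and pseudogenes together were added after seeing the data. Replicates differed beyond counting noise, so none were merged in the fits. The ratios by summed counts do add the 2 libraries of a line. Their intervals leave out that difference between replicates and are therefore too narrow.

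Receptors and lists were chosen with earlier results of these data known. Receptors called at 2-fold or more and at least 1 CPM in the higher group were described in full and the others by level. From each list the 2 called genes with the largest change in each direction, at 1 CPM or more, were named, except that some are not reported here.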

Additional observations from a re-analysis of the deposited data

How the results depend on the processing

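The number of receptors called higher was 6 with all libraries, 5 to 8 under the settings that keep all libraries, and 3 to 9 with a library left out. The lowest was 3, without A549 replicate 2. The number called lower was 15, 12 to 17 with all libraries kept, and 9 to 18 with a library left out, the lowest without A549 replicate 1. With pseudogenes also left out, the counts were 6 to 8 and 15 to 17. Genes of the pathway lists together were 29 higher and 63 lower, with ranges of 20 to 36 and 44 to 73 when a library was left out. The coefficient of variation was 20.1% with all libraries, 34.1% and 34.0% without A549 replicates 1 and 2, and 8.79% and 8.64% when pseudogenes were left out as well. It was 7.08% without TD replicate 1, 7.08% without TD replicate 2, and 7.90% with all libraries kept and pseudogenes left out. NR2F1 changed sign with upper quartiles (-0.0243), library totals (-0.0834), no filter (-0.0176), the stricter filter (-0.0410), no pseudogenes (-0.0286), and over the settings without 1 library it ran from -0.1963 to 0.1661. With pseudogenes also left out, NR2F1 was -0.1937 without A549 replicate 2 and -0.1491 without TD replicate 2. NR1I3 ran from -0.483 to 0.7195 without 1 library, and was -0.4647 without TD replicate 2 and pseudogenes. Over all genes, 3833 were higher and 3809 lower, against 2114 and 2236 without A549 replicate 1, 2241 and 2251 without A549 replicate 2, and 5329 and 6140 without TD replicate 1. The replicate block left 5 receptors higher and 12 lower, and RARA (adjusted p = 0.119), NR2F6 (0.123), NR4A3 (0.061) and ESR2 (0.119) lost their calls. The labels do not say that the numbers pair the libraries, and the differences between replicates 1 and 2 had a correlation of -0.0787 across genes between the lines. The cause was not tested. RXRG, NR1I2, ESR1 and PGR had at most 11 counts in any library and were below the filter. Whether depth limited them was not tested.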
